A study of Mus musculus with 18 samples.

Results

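The genes described here encode enzymes and core partners of DNA methylation and of Polycomb repressive complex 2 (PRC2), namely Dnmt1, Dnmt3a, Dnmt3b, Uhrf1, Tet1, Tet2, Tet3, Ezh2, Eed and Suz12. They were chosen by symbol from the mouse expression table, and all 10 were found among its 14521 named genes. RNA was sequenced from whole tissue of 6 female SKH-1E Hairless mice (an outbred strain without the Hairless gene), littermates that had all received chronic solar-simulated ultraviolet radiation. Each mouse contributed its non-lesional irradiated skin (CHR), 1 papilloma (PAP), a benign epidermal tumour, and 1 squamous cell carcinoma of the skin (SCC), so that n = 6 in each of 3 groups. CHR is itself irradiated and sun-damaged, so that no unirradiated skin enters these comparisons, and the lesions, all of low histological grade, came from the same animals at the same age. The comparisons ask which of these genes change between irradiated skin and papilloma and between papilloma and carcinoma, and how their levels compare with those of proliferation genes.

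DNA methylation is set on unmethylated CpG by Dnmt3a and Dnmt3b, and is copied after replication by Dnmt1, which Uhrf1 brings to hemimethylated DNA. The Tet enzymes oxidise 5-methylcytosine, the first step of active demethylation. PRC2 methylates lysine 27 of histone H3 through Ezh2 or its paralog Ezh1, with Eed and Suz12 as the other core subunits, and Ezh2 is known for its expression in dividing epidermal progenitors while Ezh1 is kept in non-dividing cells.

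Promoters of the members were read from RefSeq (build GRCm38.p6), in windows of 300 bases that lie mostly upstream of each start, which gave 15 promoters for the 10 genes. They were searched on both strands for 4 words bound by E2F factors (TTCCCGC as in Suz12, TTCGCGC as in Dnmt1, TTGGCGC as in Ezh2, and the related TTGCCGC), since E2F factors drive S phase genes and proliferation genes are the comparison here. Such a word was found in 5 promoters of 4 genes, and these are printed with the word in capitals (a word on the other strand reads as its reverse complement):
Uhrf1 (chr17:56303087-56303386, plus strand): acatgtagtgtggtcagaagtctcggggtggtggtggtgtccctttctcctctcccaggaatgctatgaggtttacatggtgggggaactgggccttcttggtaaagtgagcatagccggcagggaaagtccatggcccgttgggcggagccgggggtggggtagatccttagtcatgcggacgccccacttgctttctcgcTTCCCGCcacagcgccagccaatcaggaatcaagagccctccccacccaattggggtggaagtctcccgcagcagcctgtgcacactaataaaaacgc
Uhrf1 (chr17:56304063-56304362, plus strand): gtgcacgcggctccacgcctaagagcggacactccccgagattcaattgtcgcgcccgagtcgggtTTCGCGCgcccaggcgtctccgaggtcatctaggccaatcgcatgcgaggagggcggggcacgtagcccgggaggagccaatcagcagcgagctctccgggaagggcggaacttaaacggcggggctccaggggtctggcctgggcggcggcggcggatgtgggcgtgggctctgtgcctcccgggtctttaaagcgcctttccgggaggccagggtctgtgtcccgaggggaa
Dnmt1 (chr9:20952574-20952873, minus strand): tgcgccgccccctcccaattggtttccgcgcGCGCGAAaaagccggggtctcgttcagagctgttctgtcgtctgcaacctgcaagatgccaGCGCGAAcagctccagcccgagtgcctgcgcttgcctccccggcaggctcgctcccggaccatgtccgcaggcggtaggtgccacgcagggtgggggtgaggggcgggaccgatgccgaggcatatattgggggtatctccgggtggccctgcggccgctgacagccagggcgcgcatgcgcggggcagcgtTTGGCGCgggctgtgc
Ezh2 (chr6:47594981-47595280, minus strand): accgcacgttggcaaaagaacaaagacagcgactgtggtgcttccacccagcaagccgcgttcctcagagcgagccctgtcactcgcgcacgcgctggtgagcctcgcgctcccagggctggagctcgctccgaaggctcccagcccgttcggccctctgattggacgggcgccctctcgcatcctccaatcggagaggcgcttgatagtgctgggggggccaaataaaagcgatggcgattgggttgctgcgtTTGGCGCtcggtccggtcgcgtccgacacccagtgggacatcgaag
Suz12 (chr11:79992856-79993155, plus strand): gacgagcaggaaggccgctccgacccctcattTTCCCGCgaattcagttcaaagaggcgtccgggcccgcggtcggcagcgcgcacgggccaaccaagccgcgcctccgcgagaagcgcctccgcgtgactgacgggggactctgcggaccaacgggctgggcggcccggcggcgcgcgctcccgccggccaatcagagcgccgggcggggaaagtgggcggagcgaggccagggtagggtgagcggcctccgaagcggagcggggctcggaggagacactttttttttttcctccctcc
Of all 32851 RefSeq promoters of this length, 9.57% held such a word, as did 25.4% of those with 30 or more CG steps. These shares count promoters rather than genes. Of the printed promoters, the first of Uhrf1 had 12 CG steps and the others 31 to 41. The 4 genes were all among the members that rose from CHR to PAP, as described next. Tet2 and Eed also rose, and their windows held no such word. No such word lay in the windows of Dnmt3a, Dnmt3b, Tet1, Tet2, Tet3 or Eed, which says only that these letters are absent there. The word CCAAT, bound by the factor NFY, stood in each of the 5 printed promoters and in 37.4% of all promoters. It also stood in the windows of Eed and Tet3 and in another window of Dnmt1, none of which held an E2F word. Tet3 was not among the members that rose. The share of CCAAT among promoters rich in CG steps is not given here.

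From CHR to PAP the maintenance genes Dnmt1 and Uhrf1 and the PRC2 core genes Ezh2, Eed and Suz12 rose while Dnmt3a fell. Of the 10 members, 6 rose (Dnmt1, Uhrf1, Tet2, Ezh2, Eed and Suz12), 2 fell (Dnmt3a and Tet1) and 2 did not pass the test (Dnmt3b and Tet3). Over all genes, 52.6% were called in this comparison, 23.3% as higher and 29.3% as lower. A call is an adjusted p under 0.05 in limma fitted on log2(value + 1) with the mouse as a block, adjusted over all 14521 genes by the Benjamini-Hochberg method, and fold changes are on that log2 scale. On this scale the changes of genes with low reads are compressed. The median log2 fold change of the members was 0.50, against 0.00 over all genes.

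**Figure D1:**
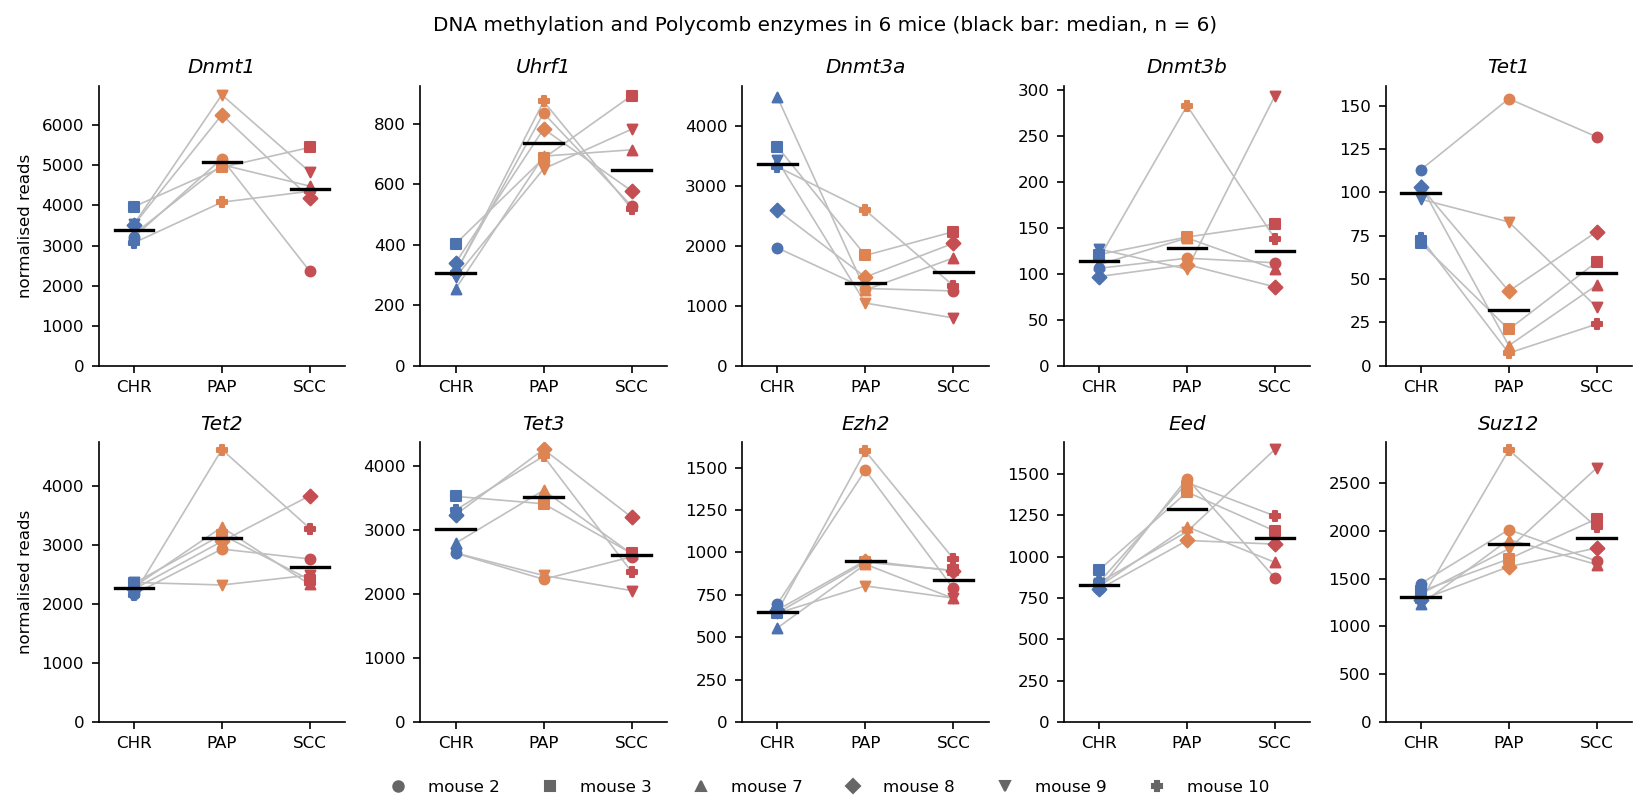
Normalised reads (y axis, linear, from 0) of each member in CHR, PAP and SCC (x axis), with a symbol for each mouse, grey lines joining the samples of a mouse and a black bar at the median (n = 6). Uhrf1 lay between 254 and 403 in CHR and above 500 in every lesion, while Dnmt3a was lower in each lesion than in the irradiated skin of the same mouse.

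Among the maintenance genes, Uhrf1 (chromosome 17, 56303321 to 56323486) had the largest rise of the members. Its normalised reads, that is, reads recovered from the deposited values and divided by the library's size factor, were 254, 307 and 403 (lowest, median and highest of 6) in CHR, 651, 738 and 874 in PAP, and 519, 646 and 893 in SCC. Neither lesion group overlapped CHR. The log2 fold change was 1.08 ± 0.14 (SE; adjusted p = 3.28e-05, limma) in PAP vs CHR and 0.91 ± 0.14 (adjusted p = 0.000336, limma) in SCC vs CHR.

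Dnmt1 (chromosome 9, 20907209 to 20959888), the maintenance methyltransferase, had 3066, 3400 and 3968 normalised reads in CHR, 4082, 5093 and 6763 in PAP, and 2354, 4420 and 5450 in SCC. Every papilloma lay above every CHR sample. This was a log2 fold change of 0.62 ± 0.15 (adjusted p = 0.00351, limma). In SCC the levels spread widely, because the carcinoma of mouse 2 lay below every CHR sample, and the difference from CHR was 0.27 ± 0.15 (adjusted p = 0.162, limma). Without mouse 2 it passed the threshold (adjusted p = 0.0212, limma).

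Of the de novo methyltransferases, Dnmt3a (chromosome 12, 3806007 to 3914443) fell. It had 1968, 3377 and 4488 normalised reads in CHR, 1046, 1385 and 2596 in PAP, and 798, 1568 and 2238 in SCC. The groups overlapped, since CHR of mouse 2 was low, but both lesions were lower than CHR in 6 of 6 mice. Dnmt3a fell by 1.01 ± 0.22 on the log2 scale in PAP (adjusted p = 0.00172, limma) and by 1.03 ± 0.22 in SCC (adjusted p = 0.00266, limma). It was called lower in PAP and in SCC under each of the 9 other settings and without any 1 mouse.

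Dnmt3b (chromosome 2, 153649450 to 153687730) was present at a far lower level. Its normalised reads were 97.0, 114 and 127 in CHR, 105, 128 and 283 in PAP, and 85.7, 125 and 294 in SCC. The groups overlapped throughout, apart from 1 papilloma and 1 carcinoma that were well above the rest. The log2 fold change was 0.22 ± 0.18 in PAP vs CHR (adjusted p = 0.321, limma) and 0.20 ± 0.18 in SCC vs CHR (adjusted p = 0.408, limma).

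The 3 Tet genes did not move together. Tet2 (chromosome 3, 133463679 to 133545139) had 2160, 2271 and 2365 normalised reads in CHR, 2322, 3118 and 4619 in PAP, and 2330, 2626 and 3836 in SCC. CHR was tight and 1 papilloma overlapped it. The log2 fold change in PAP vs CHR was 0.47 ± 0.14 (adjusted p = 0.0113, limma), and it missed the threshold without mouse 10 (adjusted p = 0.0539, limma). In SCC vs CHR it was 0.30 ± 0.14 (adjusted p = 0.1, limma).

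Tet1 (chromosome 10, 62804570 to 62908996) was the least abundant member, with 70.8, 99.3 and 113 normalised reads in CHR, 7.26, 32.0 and 154 in PAP, and 24.0, 53.2 and 132 in SCC. Mouse 2 held the highest value of each group, and its papilloma was above its CHR, whereas the other 5 papillomas were lower than CHR. Tet1 fell by 0.64 ± 0.20 on the log2(value + 1) scale in PAP (adjusted p = 0.0162, limma), a scale that compresses low genes. With limma-voom on recovered reads the change was -1.06 ± 0.36 (adjusted p = 0.0255). The call was lost without the mouse as a block (adjusted p = 0.0562, limma) and without mouse 7 or mouse 10 (0.0763 and 0.0702).

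Tet3 (chromosome 6, 83362373 to 83459084) had 2634, 3012 and 3521 normalised reads in CHR, 2227, 3511 and 4256 in PAP, and 2050, 2601 and 3196 in SCC. Papillomas lay on either side of CHR, and carcinomas were lower than CHR in 6 of 6 mice. The log2 fold change was 0.10 ± 0.12 in PAP vs CHR (adjusted p = 0.524, limma) and -0.23 ± 0.12 in SCC vs CHR (adjusted p = 0.157, limma).

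The 3 PRC2 core genes rose in both lesions. Ezh2 (chromosome 6, 47530139 to 47595341), the catalytic subunit, had 554, 646 and 695 normalised reads in CHR, 802, 947 and 1597 in PAP, and 728, 839 and 963 in SCC. No lesion overlapped CHR, and the papillomas of mice 2 and 10 were above all the others. The log2 fold change was 0.70 ± 0.12 in PAP vs CHR (adjusted p = 0.000489, limma) and 0.34 ± 0.12 in SCC vs CHR (adjusted p = 0.0476, limma). The second call was close to the threshold, with an adjusted p of 0.0723 without the block and of 0.0386 to 0.113 when 1 mouse was left out, over 0.05 for 5 of the 6.

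Eed (chromosome 7, 89954654 to 89980983), which binds the methylated histone and stimulates the enzyme, had 802, 832 and 919 normalised reads in CHR, 1098, 1286 and 1473 in PAP, and 870, 1116 and 1650 in SCC. PAP did not overlap CHR, and SCC did. The log2 fold change was 0.57 ± 0.13 (adjusted p = 0.00211, limma) and 0.41 ± 0.13 (adjusted p = 0.0218, limma) in PAP and SCC vs CHR. The latter had an adjusted p of 0.0504 to 0.0648 without mouse 3, 8, 9 or 10.

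Suz12 (chromosome 11, 79993106 to 80034123), a scaffold of the complex, had 1230, 1308 and 1447 normalised reads in CHR, 1624, 1859 and 2845 in PAP, and 1646, 1928 and 2658 in SCC. Neither lesion group overlapped CHR. The 2 lesions had log2 fold changes of 0.54 ± 0.13 (adjusted p = 0.00432, limma) and 0.55 ± 0.13 (adjusted p = 0.00602, limma), and the difference between SCC and PAP was 0.01 ± 0.13 (adjusted p = 0.962, limma).

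In SCC vs CHR, 4 members rose (Uhrf1, Ezh2, Eed and Suz12) and 1 fell (Dnmt3a), where 38.4% of all genes were called, 15.8% as higher and 22.7% as lower. Their median log2 fold change was 0.29, against -0.02 over all genes. The 2 comparisons share the CHR samples, so their values are given side by side and are not independent. All 18 libraries were in 1 fit, so the 3 comparisons of a gene share 1 estimate of spread. CHR was tighter than the lesions for most members. The SD of Suz12 was 5.98% of its mean in CHR, 22.4% in PAP and 18.9% in SCC, while that of Uhrf1 was 15.8%, 12% and 22.7%. The SE for SCC vs PAP can thus be too small. In SCC vs PAP, limma called 0 of the 10 members, where 9.85% of all genes were called (1430 genes). That count was 810 without the block, 471 without mouse 3 and 0 with the 2 groups alone or without mouse 7 or mouse 8, where the smallest adjusted p-values by limma were 0.0512, 0.0537 and 0.0794. Of the 10, 3 had an unadjusted p under 0.05 (Dnmt1, Tet3 and Ezh2), limma-voom also called 0, and Ezh2 and Tet3 had log2 fold changes of -0.36 ± 0.12 (adjusted p = 0.0908) and -0.33 ± 0.12 (adjusted p = 0.113). Ezh2 was lower in SCC than in PAP in 6 of 6 mice. Ranges did not overlap for 5 members in PAP vs CHR, for 3 in SCC vs CHR and for 0 in SCC vs PAP, where 33.6%, 19.7% and 0.413% of all genes did not overlap.

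**Figure D2:**
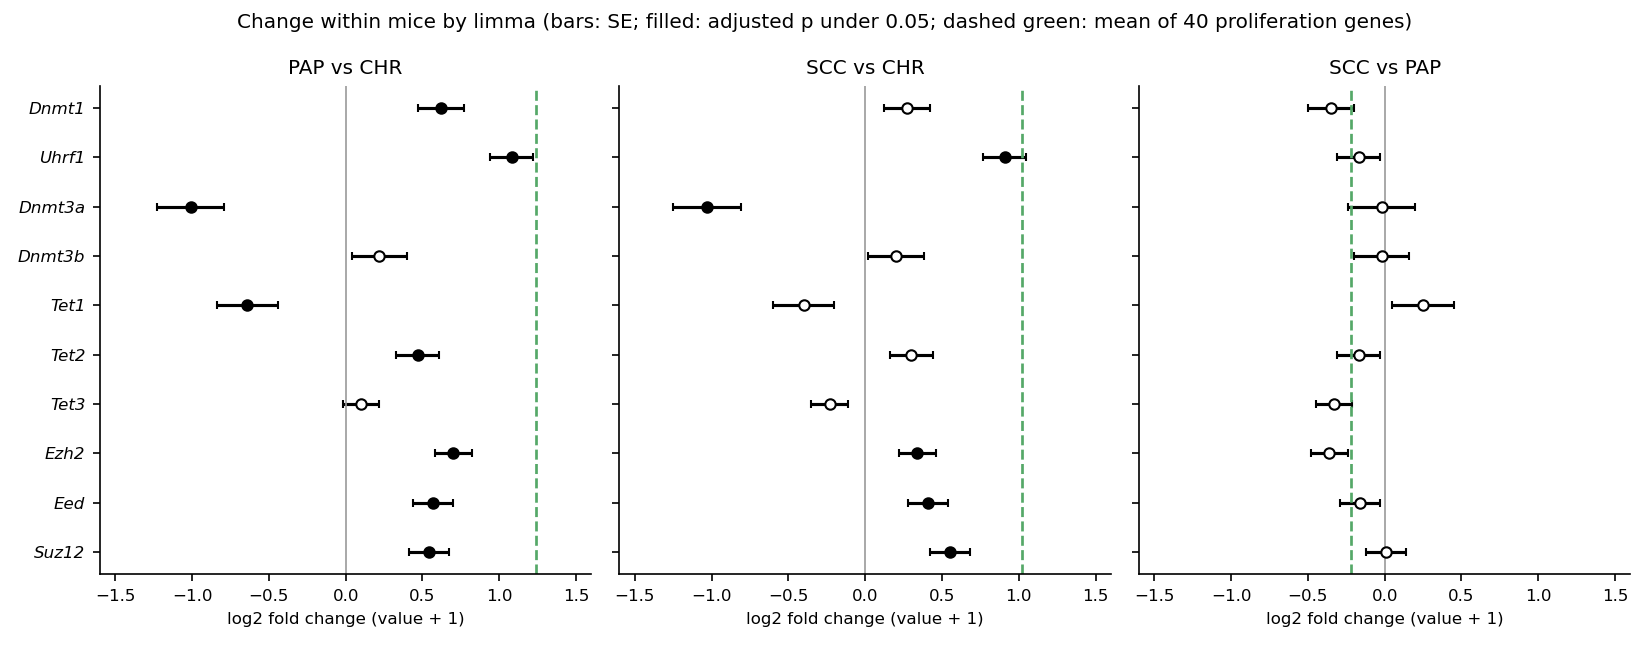
Log2 fold change (x axis, log2(value + 1)) of each member in the 3 comparisons, with bars for the SE and filled points for an adjusted p under 0.05 in limma. The dashed green line is the mean change of 40 proliferation genes (1.24, 1.02 and -0.22), and Uhrf1, at 1.08 and 0.91 in the first 2 comparisons, is the member nearest to it there.

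The study's progression model, a mixed model with the mouse as random effect and an unadjusted p under 0.05, calls a gene early when it differs in SCC vs CHR and already in PAP vs CHR. By it 5 members were early, namely Dnmt3a, Uhrf1, Ezh2, Eed and Suz12, where 41.1% of all genes were early. The other 5 were not different in SCC vs CHR, as 51.6% of all genes were not. No member was late or stepwise, classes that held 2.2% and 0.523% of all genes.

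Levels of different genes were compared as normalised reads per kb of annotated exon. In CHR the order was Dnmt1 (465 ± 43.2, mean ± SD, n = 6), Suz12 (267 ± 16.0), Eed (219 ± 11.4), Dnmt3a (195 ± 52.4), Tet3 (181 ± 22.8), Tet2 (134 ± 5.22), Ezh2 (95.9 ± 6.98), Uhrf1 (74.5 ± 11.8), Dnmt3b (22.1 ± 2.08) and Tet1 (6.04 ± 1.12). The neighbours Eed and Dnmt3a, Dnmt3a and Tet3, and Ezh2 and Uhrf1 overlapped in range. In PAP, Dnmt3a moved down to the 8th place (95.3 ± 33.8) and Uhrf1 up to the 6th (177 ± 21.3), where it overlapped its neighbours Tet2 and Ezh2. In SCC, Dnmt3a was again in the 8th place (94.8 ± 32.7) and Uhrf1 in the 5th (157 ± 35.7). The exon lengths count every annotated isoform, so that genes with long alternative exons, such as Dnmt3a with 16642 bases, appear lower than they may be.

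Within the Dnmt family the makeup shifted from Dnmt3a to Dnmt1. Dnmt3a made up 28.3% ± 5.61 (SD, n = 6) of the reads per kb of the 3 Dnmt genes in CHR, 11.5% ± 4.95 in PAP and 13.8% ± 4.34 in SCC. The lowest CHR sample had 20.6%, and the highest papilloma and carcinoma had 20.4% and 18%. The share of Dnmt1 went from 68.5% ± 5.51 to 85.0% ± 6.78 and 82.0% ± 3.33, and that of Dnmt3b was 3.26% ± 0.341, 3.55% ± 1.90 and 4.20% ± 1.93. In PRC2 the proportions overlapped between groups, with Ezh2 at 16.5% ± 0.883, 18.2% ± 2.49 and 15.3% ± 2.63 of the reads per kb of the 3 core genes. The sum over the 3 Tet genes was 321 ± 22.6, 394 ± 87.1 and 327 ± 52.5 normalised reads per kb in CHR, PAP and SCC, also with overlap.

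**Figure D3:**
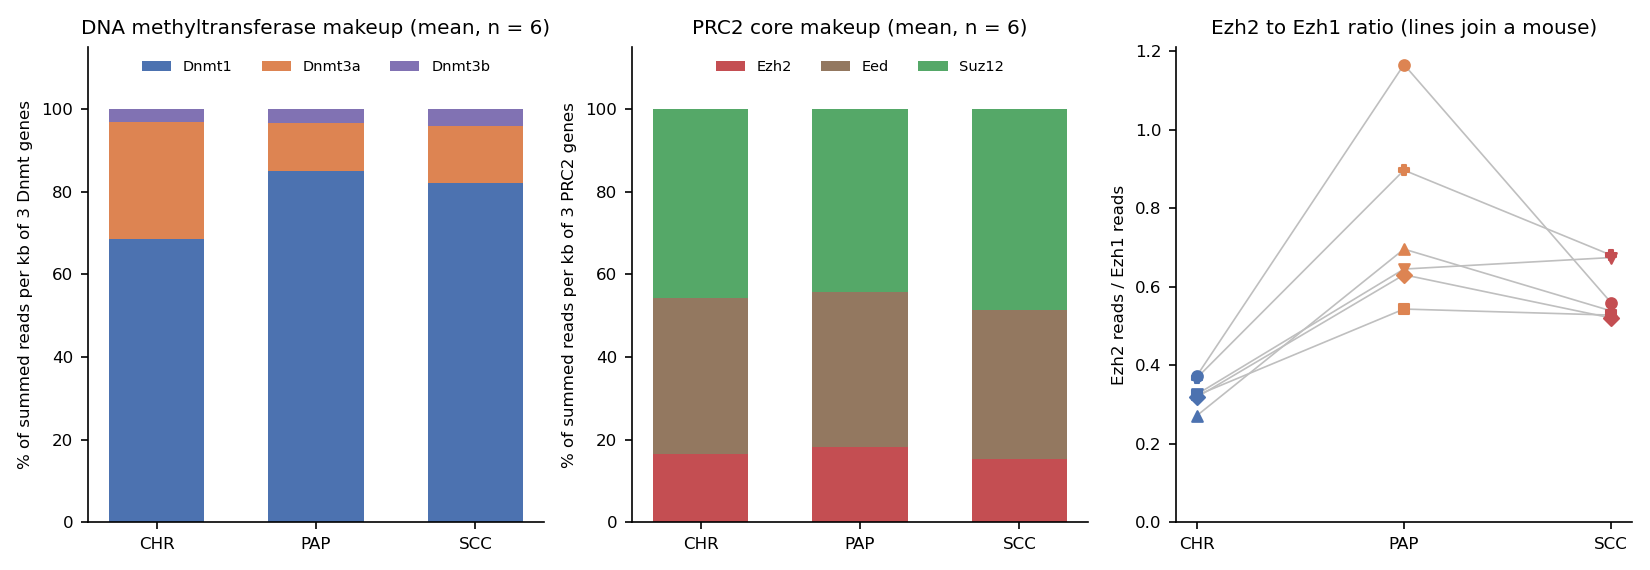
Left and middle, the mean share (y axis, %, n = 6) of each gene in the summed normalised reads per kb of the 3 Dnmt genes and of the 3 PRC2 core genes in CHR, PAP and SCC. Right, the ratio of Ezh2 to Ezh1 normalised reads (y axis, linear, from 0) with a symbol for each mouse, which lay between 0.272 and 0.373 in CHR and above 0.5 in every lesion.

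The catalytic subunits of PRC2 moved in opposite directions. Ezh1, whose product has the weaker methyltransferase activity, had 1773, 1978 and 2074 normalised reads in CHR, 1244, 1423 and 1781 in PAP, and 1083, 1412 and 1713 in SCC. It fell by 0.39 ± 0.11 on the log2 scale in PAP (adjusted p = 0.00712, limma) and by 0.43 ± 0.11 in SCC (adjusted p = 0.00683, limma). The ratio of Ezh2 to Ezh1 reads, which does not depend on the scaling of a library, had a median of 0.325 in CHR, 0.671 in PAP and 0.548 in SCC. On the log2 scale it was higher by 1.17 ± 0.32 (SD, n = 6) in PAP and by 0.82 ± 0.18 in SCC than in CHR, each in 6 of 6 mice (two-sided exact permutation test flipping the sign of each mouse's difference, p = 0.0312, the smallest that 6 mice allow). In SCC vs PAP it was -0.35 ± 0.39, higher in 1 of 6 mice (exact p = 0.0938). These 3 p-values are unadjusted.

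Proliferation genes set the scale for these changes. A list of 40 genes, 20 of S phase and 20 of G2 and mitosis, holds none of the members, and its mean log2(value + 1) in a library is called here the proliferation score. The score rose by 1.24 ± 0.25 (SD, n = 6 mice) from CHR to PAP and by 1.02 ± 0.31 from CHR to SCC, in 6 of 6 mice each. All 40 genes were called higher in PAP and 38 in SCC, each against CHR. Mki67, a marker of cycling cells, had log2 fold changes of 1.50 ± 0.13 and 0.93 ± 0.13 and was lower in SCC than in PAP (-0.57 ± 0.13, adjusted p = 0.0182, limma), a call that was lost with the 2 groups alone (adjusted p = 0.0861), without mouse 3, 7 or 8 (0.0534, 0.0982 and 0.0892) and relative to keratinocyte genes (0.06, adjusted p = 0.865). Top2a, the topoisomerase of mitosis, changed by 1.77 ± 0.21 and 1.39 ± 0.21, and Mcm2, part of the replicative helicase, by 1.20 ± 0.17 and 1.03 ± 0.17. Pcna, the sliding clamp of DNA polymerase, changed by 0.45 ± 0.13 and 0.37 ± 0.13, with the latter call lost without the block (adjusted p = 0.0771) and without mouse 3, 7, 8, 9 or 10 (0.0579 to 0.0992). Its level is uncertain, since near-identical copies of this gene may take reads from it, which was not tested. It was also low, with a median of 70.4 normalised reads in CHR, where the log2(value + 1) scale compresses changes.

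The members were then fitted relative to the score of the same library. This subtracts the same score from every gene of a library, so the members keep the order of their first log2 fold changes. Uhrf1 was the only member not called on this scale in either lesion against CHR, with a relative log2 fold change of -0.16 ± 0.13 (adjusted p = 0.257, limma) and -0.11 ± 0.13 (adjusted p = 0.411, limma). The other 9 members were called lower relative to the score in both comparisons. This count is near the background, since 92.8% and 90.3% of all genes were called lower on this scale. For the PRC2 core genes, the relative log2 fold changes in PAP and SCC were -0.54 ± 0.14 and -0.69 ± 0.14 for Ezh2, -0.67 ± 0.13 and -0.62 ± 0.13 for Eed, and -0.70 ± 0.11 and -0.47 ± 0.11 for Suz12. Dnmt1 had -0.62 ± 0.17 and -0.75 ± 0.17. The values for Dnmt3a were -2.25 ± 0.27 and -2.06 ± 0.27, and those for Tet1 were -1.88 ± 0.27 and -1.42 ± 0.27.

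For the maintenance genes and Ezh2 the call in PAP vs CHR depended on which proliferation genes were the reference. Relative to the S phase genes alone, Uhrf1 had 0.13 ± 0.14 (adjusted p = 0.376, limma), Ezh2 -0.26 ± 0.15 (adjusted p = 0.121) and Dnmt1 -0.33 ± 0.17 (adjusted p = 0.0815) in PAP vs CHR, none of which passed the test. Relative to the G2 and mitosis genes, which rose more, all 10 members were called lower in PAP vs CHR, Uhrf1 with -0.44 ± 0.15 (adjusted p = 0.00924, limma). In SCC vs CHR, Dnmt1 (-0.57, adjusted p = 0.00683, limma) and Ezh2 (-0.51, adjusted p = 0.00673) were called lower against the S phase genes too. Uhrf1 was called there against neither list (adjusted p = 0.663 and 0.0697). The call of Suz12 in SCC vs CHR did depend on the list. It had -0.30 (adjusted p = 0.0528, limma) against the S phase genes and -0.65 (adjusted p = 0.000107) against the G2 and mitosis genes. In SCC vs PAP, limma called 0 members relative to the full score, where 10.2% of all genes were called, and 0 had an unadjusted p under 0.05. Suz12 was nearest, higher relative to the score in 6 of 6 mice (0.23 ± 0.11, adjusted p = 0.239, limma).

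**Figure D4:**
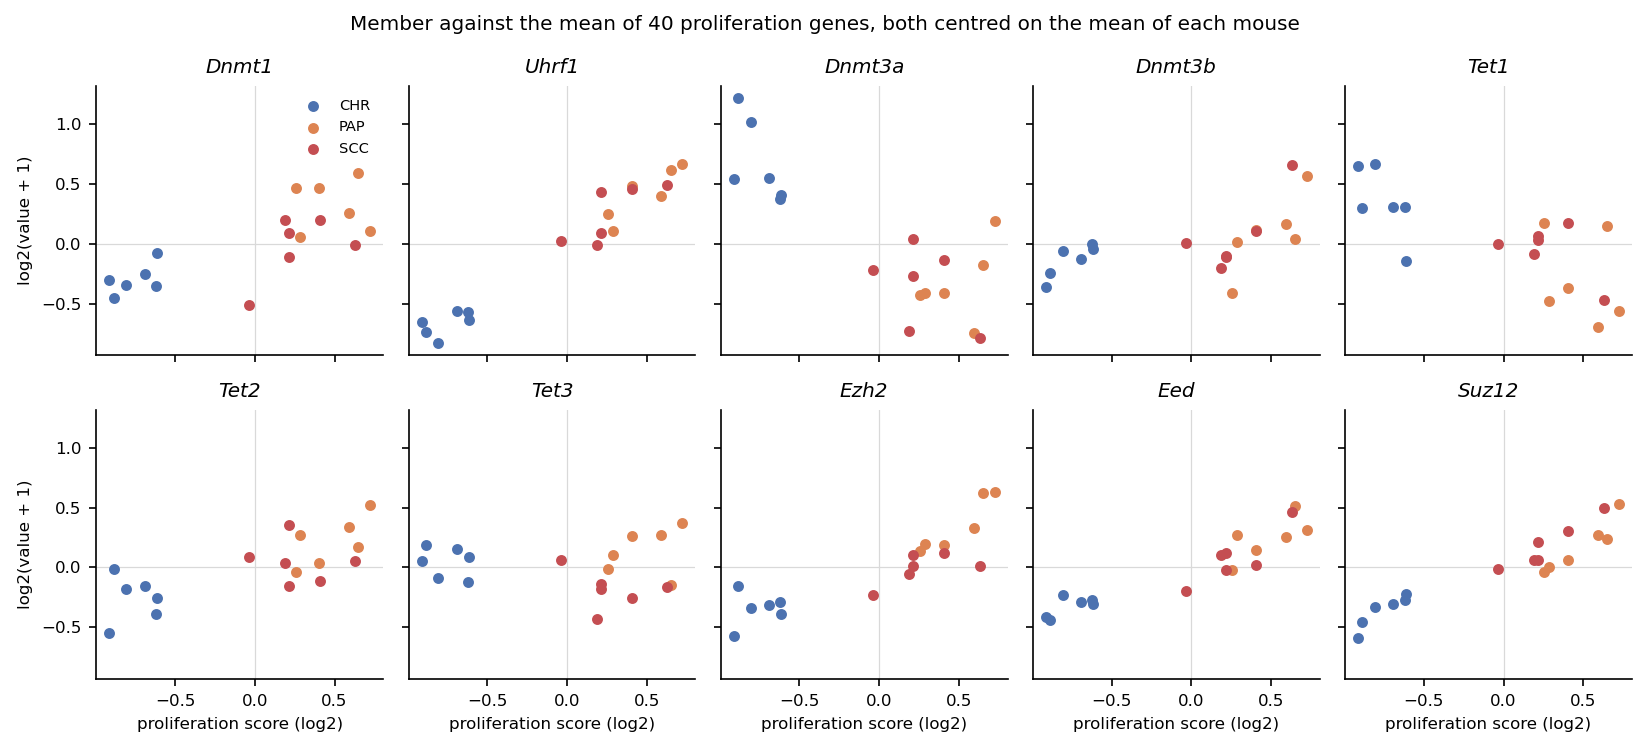
Log2(value + 1) of each member (y axis) against the proliferation score (x axis, log2), both as the difference from the mean of the mouse's 3 samples, with a point for each of 18 libraries coloured by group. CHR lies apart at low scores, Uhrf1 (r = 0.98) and Suz12 (r = 0.94) climb with the score, and Dnmt3a (r = -0.82) and Tet1 (r = -0.74) decline.

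Pearson's r with the score over the 18 libraries, centred within mice, was 0.98 for Uhrf1, 0.94 for Suz12, 0.92 for Eed, 0.87 for Ezh2, 0.75 for Dnmt1 and -0.82 for Dnmt3a. It was 0.73 for Tet2, 0.58 for Dnmt3b, -0.05 for Tet3 and -0.74 for Tet1. Over all genes the median r was -0.04 and the 90th percentile 0.85. CHR forms a cluster of its own in these values, so r was also taken after centring within mouse and group. It was then 0.93 for Suz12, 0.79 for Dnmt3b, 0.78 for Uhrf1 and Eed, 0.64 for Ezh2, 0.35 for Dnmt1 and -0.18 for Dnmt3a. Tet2 had 0.19, Tet3 -0.06 and Tet1 -0.44. Suz12 thus had nearly the same r among samples of a group as across groups, while that of Dnmt3a was far smaller among samples of a group. These are descriptions over libraries that share mice and depth.

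Of all genes, those most like each member over the 18 libraries (r of log2(value + 1), centred within mice) differed from member to member. For Uhrf1 they were Mcm10 (r = 0.99), a replication initiation factor, BC030867 (0.98) and Chtf18 (0.98), which loads the replication clamp, and 18 of the 40 proliferation genes were among the 100 genes most like it. Of all genes, those of the score included, 0.482% had a higher r with the score than Uhrf1. For Suz12 they included Ssb (0.98) and Cops2 (0.98), and for Eed they were the splicing factor Prpf38a (0.99), Smpd4 (0.98) and Pak1ip1 (0.98). For Ezh2 they were Ankrd26 (0.96), Aff4 (0.95) and Bms1 (0.95), with 2 proliferation genes among its 100. For Dnmt1 they were Sdhd (0.96), a subunit of succinate dehydrogenase, Rnaseh2c (0.93) and Gm9791 (0.91), with 1 proliferation gene among its 100.

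For Dnmt3a the most alike genes were Phka2 (r = 0.96), a subunit of phosphorylase kinase, Plin2 (0.96), a coat protein of lipid droplets, and Fnip2 (0.95). Those for Dnmt3b were Dhodh (0.92), 2310036O22Rik (0.90) and Psmc3 (0.90). Those for Tet1 were Zbtb10, Zfp704 and Zrsr1 (0.93 each), and those for Tet2 were Atrn (0.95), Trappc11 (0.94) and Pnpla6 (0.93). For Tet3 they were Crebbp (0.92), a histone acetyltransferase, Cdh1 (0.90), which encodes E-cadherin and is in the keratinocyte list, and Kat6a (0.85), another acetyltransferase.

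Other genes of the 2 pathways were taken from lists, to be read against the 23.3% of all genes called higher and 29.3% called lower in PAP vs CHR, with 15.8% and 22.7% in SCC vs CHR. Of 16 partners and readers of DNA methylation, 9 rose and 1 fell in PAP vs CHR, and 5 rose and 0 fell in SCC vs CHR. Their median log2 fold change was 0.35 and 0.25, against 0.00 and -0.02 over all genes. Hells, a chromatin remodeller needed for DNA methylation, rose by 1.14 ± 0.26 (adjusted p = 0.00243, limma) and 1.11 ± 0.26 (adjusted p = 0.00489, limma). Dnmt3l, an inactive cofactor of the de novo enzymes, rose by 0.84 ± 0.27 in PAP (adjusted p = 0.018, limma, and 0.0688 without mouse 7). Zbtb4, which binds methylated CpG, fell by 0.46 ± 0.16 in PAP (adjusted p = 0.0271, limma), a call lost without mouse 7, 8, 9 or 10 (0.0508 to 0.0956) and under scaling to the total or the upper quartile (0.0512 and 0.0539).

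Of 8 other PRC2 subunits, 5 rose and 2 fell in PAP vs CHR, and 3 rose and 2 fell in SCC vs CHR. Jarid2, an accessory subunit that helps to recruit the complex, rose by 1.33 ± 0.17 (adjusted p = 3.35e-05, limma) and 1.11 ± 0.17 (adjusted p = 0.000373, limma), against 0.70 and 0.34 for Ezh2, a difference that was not tested. Aebp2, which joins the same form of the complex, rose by 0.68 ± 0.14 (adjusted p = 0.00161, limma) and 0.39 ± 0.14 (adjusted p = 0.0489, limma), the latter lost without mouse 2, 3, 8, 9 or 10 (0.0699 to 0.129). Phf1, a Polycomb-like subunit of the alternative form, fell by 0.58 ± 0.18 (adjusted p = 0.0165, limma) and 0.50 ± 0.18 (adjusted p = 0.0436, limma), and Ezh1 was the other gene that fell. The calls of Phf1 were lost without mouse 7 or 10 in PAP (0.0668 and 0.0661) and without mouse 3, 7, 8, 9 or 10 in SCC (0.057 to 0.128).

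Of 20 subunits of PRC1, the complex that ubiquitinates histone H2A, 4 rose and 4 fell in each comparison with CHR, shares that are not far from those of all genes. Cbx7, a chromodomain subunit that reads the PRC2 mark, fell by 1.38 ± 0.16 in PAP (adjusted p = 1.45e-05, limma) and by 1.13 ± 0.16 in SCC (adjusted p = 0.000194, limma). Cbx6, of the same family, fell by 1.73 ± 0.32 in PAP (adjusted p = 0.000555, limma) and was then higher in SCC than in PAP by 1.26 ± 0.32 (adjusted p = 0.027, limma). It was the only gene of the 4 pathway lists called in SCC vs PAP, and the call was lost with the 2 groups alone (adjusted p = 0.0577) and without mouse 3, 7 or 8 (0.105, 0.146 and 0.125). Pcgf6 and Pcgf2, which define different forms of PRC1, rose by 0.63 ± 0.15 (adjusted p = 0.00353, limma) and 0.47 ± 0.13 (adjusted p = 0.00962, limma) in PAP. Of 7 enzymes and cofactors that remove these histone marks or oppose them, 1 rose in PAP vs CHR, the demethylase gene Kdm6b (0.61 ± 0.16, adjusted p = 0.00612, limma), and 0 were called in SCC vs CHR by limma, where 0 had an unadjusted p under 0.05.

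The samples are bulk tissue, in which fewer cells of a type and less RNA per cell cannot be told apart, and the cell makeup moved with the groups. Summed over 12 skeletal muscle genes, normalised reads were 392821 to 590008 in CHR, 307 to 29570 in PAP and 413 to 198557 in SCC, and all 12 genes fell in both comparisons with CHR. The carcinoma of mouse 10 had 413 and the other 5 carcinomas 74347 or more. The carcinoma of mouse 2, which was lowest for Dnmt1, and the papilloma of mouse 2, which was highest for Tet1, held the highest muscle sums of their groups (198557 and 29570). Of 10 adipocyte genes 9 fell in each comparison with CHR. Of 9 dermal fibroblast genes, 7 fell in PAP and 2 in SCC, with sums of 139165 to 308211, 5496 to 161963 and 17962 to 497910 in CHR, PAP and SCC. Of 8 T cell genes, 8 and 7 fell, and of 8 myeloid genes, 7 and 7. Of 7 endothelial genes, 2 rose and 3 fell in PAP, and 3 rose and 1 fell in SCC. Of 15 keratinocyte genes, 11 rose and 1 fell in PAP, and 8 rose and 2 fell in SCC. No marker was at 0 in all libraries of a group.

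These lists moved with the members. Centred within mice, r with the mean of the adipocyte genes was 0.89 for Dnmt3a (0.68 when centred within mouse and group), and r with the fibroblast genes was 0.82 for Tet1 (0.70). With the muscle genes r was 0.76 for Dnmt3a and 0.74 for Tet1 (0.46 and 0.38 within mouse and group). For the members that rose, r with the muscle genes was -0.64 to -0.78 across groups and -0.11 to 0.49 within mouse and group. The part of cell makeup in these changes was not tested.

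Taken relative to the mean of the 15 keratinocyte genes of the same library, a scale on which the median of all genes shifted by -0.86 (PAP vs CHR) or -0.26 (SCC vs CHR), no member was called higher in either comparison. Dnmt3a was called lower in both (-1.88, adjusted p = 0.000143, and -1.27, adjusted p = 0.0171, limma), and Tet1 (-1.51) and Tet3 (-0.77, adjusted p = 0.0287) in PAP. On this scale 1.04% of all genes were higher and 62.7% lower in PAP vs CHR, and 1.76% and 14.8% in SCC vs CHR. The 15 genes did not move alike, with log2 fold changes from -1.75 (Krt10) to 2.33 (Lamb3) in PAP vs CHR. Whether their mean follows the content of keratinocytes was not tested. This scale subtracts the same value from every gene of a library. A gene's distance from the median of all genes is therefore that of the first fit, and is no further test of the rises. The 6 members that rose in PAP had values from -0.39 (Tet2) to 0.22 (Uhrf1) against that median of -0.86. Dnmt3b with -0.64 and Tet3 with -0.77 lay above it too, while Dnmt3a and Tet1 lay below it. Of the other genes named here, Mki67, Mcm2, Hells, Jarid2 and Pcgf6 were also not called higher on this scale in PAP vs CHR, nor were Pcna, Dnmt3l, Aebp2, Pcgf2 and Kdm6b.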

How the data were processed

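Messenger RNA of 18 mouse samples (3 lesion types of 6 mice, numbered in the titles) was analysed. The authors aligned reads to mm10, obtained gene counts with HTSeq, normalized them by a scaling factor method, applied a variance-stabilizing transformation and, by their methods, scaled batches. Batches are not labelled, and whether that scaling entered this table was not tested. The deposited values are a score on the linear scale of that transformation, in which 0 reads appear as 39. Versions, annotation and strandedness are not given in the sources used here.

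The transformation was inverted with a zero level of 39.13, after which a whole number of reads gave back the deposited, rounded value for 98.3% of values (99.89% of those under 100). The zero level and size factors were fitted to maximise this share, and 50 to 71.7% of the whole numbers from 40 to 99, depending on the library, match some number of reads anyway, against 96.83 to 100% of the values there. At high values nearly every whole number matches in some libraries, so recovered reads are an estimate. Size factors were 0.834 to 1.18, and libraries held 15.4 to 21.0 M recovered reads (median 18.9 M). Of 14542 entries, 21 bore a number for a symbol (at most 0.236% of a library) and were left out. No pair of libraries shared more than 2.24% of values.

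limma (3.58.1, R 4.3.3) was fitted on log2(value + 1), pseudocount 1, with the mouse as a block, since the 3 samples of a mouse are from 1 animal. Deviations from the group means correlated by 0.064, 0.116 and 0.067 on average within mice (CHR with PAP, CHR with SCC, PAP with SCC). Between different mice the averages were -0.011, -0.021 and -0.013. Single pairs within a mouse ranged from -0.245 to 0.507, so samples of a mouse were little more alike than those of different mice. Adjusted p-values (Benjamini-Hochberg) covered 14521 genes, and tests were two-sided. The fit was also run on simulated reads with the same spread in all groups, which cannot vouch for it where groups differ in spread, as they do here. Mixed models were computed in closed form and checked against nlme (3.1.168). Alternatives were another scaling, pseudocount, filter (mean of 10 reads), limma-voom, the 2 groups alone, no block and each mouse left out. Named were all members, Ezh1, Mki67, Top2a, Pcna and Mcm2, the 3 genes most like each member (1 is not reported here), and per pathway list up to 2 called genes a direction with the largest change in PAP vs CHR and any called in SCC vs PAP. The members and lists were chosen with earlier results of these data known. Gene coordinates are those of GENCODE M21 (GRCm38), and promoters are from RefSeq.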

Additional observations from a re-analysis of the deposited data

Results flagged for a closer look

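In 36 groups of 6 samples (the 10 members, the Ezh2 to Ezh1 ratio and the proliferation score, in 3 groups each), 4 values stood further from their group than Dixon's 95% critical value of 0.625 allows, where chance flags about 1 in 20. Dnmt3b in the papilloma of mouse 10 had 283 normalised reads, against 105 to 140 in the other papillomas. Dnmt3b in the carcinoma of mouse 9 had 294, against 85.7 to 154 in the others. Suz12 in the papilloma of mouse 10 had 2845, against 1624 to 2011. Eed in the irradiated skin of mouse 3 had 919, against 802 to 844.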

How the results depend on the processing

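The 6 higher and 2 lower calls in PAP vs CHR had the same counts with the 2 groups alone, log2 of normalised reads, limma-voom, a filter, pseudocount 0 or another scaling. Relative to keratinocyte genes the count was 3 in PAP vs CHR but 1 in SCC vs CHR. There, Dnmt1 (-0.24), Dnmt3b (-0.64), Tet2 (-0.39), Tet3 (-0.77), Ezh2 (-0.17), Eed (-0.29) and Suz12 (-0.33) changed sign in PAP vs CHR. Without any 1 mouse, members called were 6 to 8 in PAP vs CHR, 3 to 6 in SCC vs CHR (3 without mouse 3, 8, 9 or 10) and 0 to 1 in SCC vs PAP (Tet3 without mouse 2, adjusted p = 0.0492, limma). They were 0 to 1 relative to the score in SCC vs PAP (1 without mouse 9). The log2 ratio of Ezh2 to Ezh1 ranged from 1.07 to 1.25 in PAP vs CHR, while for SCC vs CHR it ranged from 0.78 to 0.87, each with exact p = 0.0625, the smallest that 5 mice allow. Without the replicate block, 7 and 4 members were called in PAP and SCC vs CHR (Tet1 and Ezh2 lost), and 0 in SCC vs PAP. The block changed no other member's call, but over all genes SCC vs PAP had 1430 calls with it, 810 without it, and 0 with the 2 groups alone or without mouse 7 or 8. In SCC vs CHR, 41.0% of calls over all genes were higher, and 50.0% and 51.8% when scaled to the total or the upper quartile. The causes were not tested. Low reads limit Tet1, with 7 to 181 recovered reads in papillomas.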
